A study of Mus musculus with 33 samples.

Results

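This is an account of how the transcriptome of wild-type mouse embryonic stem cells changed over the first 4 days of embryoid body formation. It rests on 6 of the 33 RNA-seq libraries of the series, chosen by their labels alone: 3 of undifferentiated E14Tg2a cells (day 0) and 3 of E14Tg2a embryoid bodies on day 4. E14Tg2a is an established embryonic stem cell line of strain 129/Ola that lacks functional HPRT. None of the libraries compared here comes from the clones with a deletion near *Nanog* that the study made. On day 0 the cells grew on gelatine in serum medium with LIF, the cytokine that sustains self-renewal. For day 4 they were aggregated and kept without LIF in dishes to which cells do not attach. The study's methods speak of 3 independent assays, and all of them come from this single line. E14Tg2a libraries of days 6 and 8 are used only to show the later level of genes named here, and the other cell lines of the series are not used.

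Naive pluripotency, the state of the pre-implantation epiblast, is held in culture by LIF acting through STAT3 on transcription factors such as KLF4, TFCP2L1, ESRRB and GBX2. Without LIF this network is dismantled while OCT4 (*Pou5f1*) and SOX2 stay on, and the cells pass through a formative state resembling the post-implantation epiblast, known for *Fgf5*, *Otx2* and the de novo DNA methyltransferases. In embryoid bodies the outer cells can form primitive and visceral endoderm, the extra-embryonic layer that surrounds the epiblast in the embryo.

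The deposited values are TPM, a length-corrected share of all transcripts in a library, so the number of reads behind each value is unknown here and the spread between libraries is the only error given. The listed genes summed to between 994979 and 996729 TPM in the 6 libraries. On the log2(TPM + 1) scale, Pearson's r across genes was 0.966 to 0.985 between libraries of the same day and 0.927 to 0.947 between days. The cells carried the markers of their label: *Pou5f1* stood at 1602, 1631 and 2050 TPM and *Sox2* at 305, 351 and 328 TPM in the day 0 libraries. Replicate 1 of day 0 stood apart in the endoderm genes. *Gata4*, an endoderm transcription factor, was at 13.02, 1.18 and 1.49 TPM in day 0 replicates 1, 2 and 3. *Dab2*, an endocytic adaptor of the visceral endoderm, was at 58.2, 2.67 and 4.27 TPM. Of 27 primitive and visceral endoderm markers tested, 26 were highest in replicate 1 on day 0, 26 were highest in replicate 1 on day 4, and all 27 were lowest in replicate 2 on day 4. The summed level of the 28 listed markers, tested or not, was 2045, 956 and 953 TPM on day 0 and 4762, 1405 and 2632 TPM on day 4. Where leaving out a single library moved the count of a list by over 1.5 times, that count is given beside it. In bulk RNA, fewer cells of a type and less RNA per cell cannot be told apart.

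The test covered the 14379 genes whose mean reached 1 TPM on day 0 or on day 4. It compared log2(TPM + 1) of 3 libraries with that of 3 by limma. A gene was called, and is said to have risen or fallen, at a Benjamini-Hochberg adjusted p under 0.05 over all genes tested and a log2 fold change beyond 1 in either direction. On this scale the change of low genes is understated. By day 4, 541 genes (3.76% of those tested) had risen and 644 (4.48%) had fallen. These shares are the background for the count of each gene list below. A further set passed the adjusted p with a smaller change, for 3211 in all. Changes beyond 2 on the log2 scale were found in 118 of the risen and 80 of the fallen genes. All but 3 of the 1185 called genes had day 0 and day 4 libraries that did not overlap. The calls rest on the same values, so this is no separate support for them. The share of such genes among all those tested is not given here. The median log2 fold change over all genes tested was -0.094, the background for the direction of the lists below. The share of all genes that were lower on day 4 is not given here. With day 0 replicate 1 left out, 744 genes rose and 617 fell. With replicate 1 of both days left out, 804 rose and 725 fell. With day 0 replicate 2 left out, 348 rose and 536 fell.

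**Figure D1:**
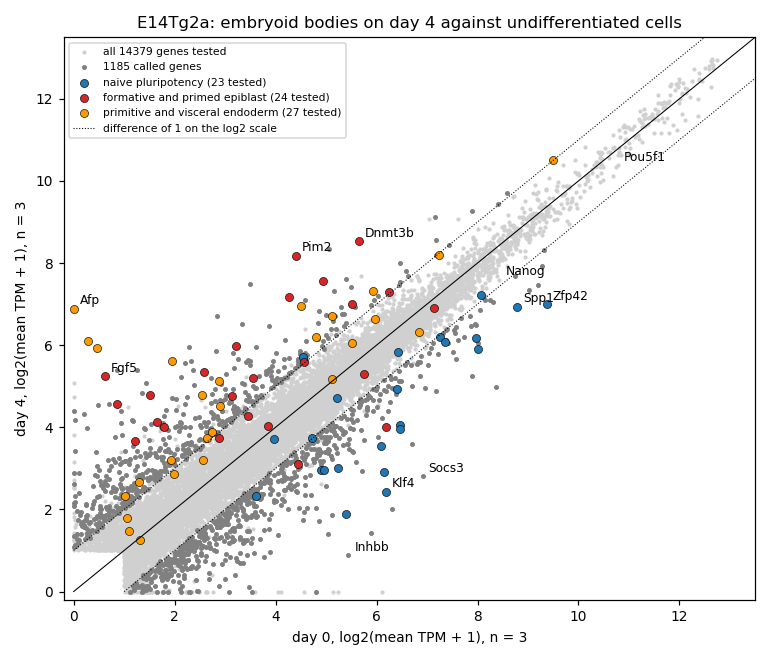
Each point is a gene, with log2(mean TPM + 1) of the 3 day 0 libraries on the horizontal axis and of the 3 day 4 libraries on the vertical axis. The solid line marks equal levels and the dotted lines a difference of 1 on the log2 scale. The 23 naive pluripotency genes lie mostly below the lines and the 24 formative genes mostly above, while *Pou5f1* lies close to the solid line.

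The naive pluripotency network was the gene group with the lowest median of the 39 lists examined. Of 23 naive genes tested, 18 fell, 1 rose and 4 were not called, with a median log2 fold change of -1.85 beside -0.094 over all genes, and 22 of the 23 were lower on day 4. The summed level of the list was 2896, 3072 and 2996 TPM in the day 0 libraries and 1114, 941 and 737 TPM in the day 4 libraries. *Klf4*, a zinc finger factor induced by STAT3, lies on chromosome 4 from 55527143 to 55532466 of mm10 and fell the most. It stood at 63.4, 73.03 and 78.2 TPM on day 0 and 5.195, 4.54 and 3.48 TPM on day 4, so that 6.16% of its day 0 level was left, with a log2 fold change of -3.75 ± 0.16 (SE, adjusted p = 4.12e-05). *Gbx2*, a homeobox gene that also answers to LIF, was at 43.6, 40.9 and 38.5 TPM on day 0 and 1.56, 4.75 and 1.73 TPM on day 4, with a log2 fold change of -3.62 ± 0.30 (SE, adjusted p = 0.000518). Day 4 replicate 2 kept a higher level than the other two, yet remained far below each day 0 library. *Tfcp2l1*, a partner of ESRRB in the self-renewal network, was at 69.4, 76.01 and 55.98 TPM on day 0 and 16.3, 8.34 and 7.34 TPM on day 4 and changed by -2.61 ± 0.27 (SE, adjusted p = 0.00121). *Jam2*, an adhesion molecule, fell from a mean of 70.05 to 6.57 TPM.

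*Zfp42*, which encodes the widely used naive marker REX1, had the highest day 0 level of the list. It was at 602, 712 and 669.9 TPM on day 0 and 139, 145 and 96.4 TPM on day 4, a log2 fold change of -2.39 ± 0.16 (SE, adjusted p = 0.000256). *Esrrb*, an orphan nuclear receptor that can stand in for NANOG, fell to 28.6% of its day 0 mean, from 263, 258 and 224 TPM to 84.2, 77.4 and 51.8 TPM, a log2 fold change of -1.82 ± 0.18 (SE, adjusted p = 0.00102). *Prdm14*, a repressor of de novo methylation genes, was less abundant and went from 10.4, 10.9 and 12.1 TPM to 4.88, 4.28 and 2.92 TPM, with a log2 fold change of -1.29 ± 0.19 (SE, adjusted p = 0.00439). *Spp1*, the secreted phosphoprotein osteopontin, fell from a mean of 439 to 121 TPM (-1.85 on the log2 scale). The share of the day 0 level that was left thus differed between regulators, from 6.16% for *Klf4* to 36.0% for *Prdm14*. Not all members fell by this much. *Fgf4*, the main FGF ligand of these cells, was at 75.4, 90.9 and 87.8 TPM on day 0 and 65.4, 54.3 and 47.98 TPM on day 4, a log2 fold change of -0.60 ± 0.14 (SE, adjusted p = 0.0206) that stays under the fold threshold. *Mybl2*, a cell cycle transcription factor, changed by -0.88 (adjusted p = 0.00436). *Dppa3*, a maternal factor that protects methylation marks, was the exception that rose, from 31.3, 17.2 and 18.3 TPM to 67.1, 47.2 and 40.3 TPM, a log2 fold change of 1.19 ± 0.26 (SE, adjusted p = 0.0166). *Dppa3* lost its call without day 0 replicate 2, day 0 replicate 3 or day 4 replicate 1 (range 0.99 to 1.45, adjusted p up to 0.0673).

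The genes of general pluripotency changed far less. In the core list, 11 of 13 members were not called, 1 rose and 1 fell, and the median log2 fold change was -0.27. *Nanog*, on chromosome 6 from 122707489 to 122714633, was at 326, 338 and 368 TPM on day 0 and 183, 207 and 189 TPM on day 4. Its day 4 libraries were all below those of day 0 and 56.1% of the mean was left, and its log2 fold change of -0.83 ± 0.094 (SE, adjusted p = 0.00164) passed the adjusted p but not the fold threshold. *Pou5f1* was at 1602, 1631 and 2050 TPM on day 0 and 1094, 1522 and 1369 TPM on day 4, a log2 fold change of -0.41 ± 0.15 (SE, adjusted p = 0.0873). *Sox2* was at 305, 351 and 328 TPM on day 0 and 243, 239 and 171 TPM on day 4, with -0.61 ± 0.15 (SE, adjusted p = 0.0234). *Utf1*, a chromatin factor of pluripotent cells, was higher on day 4 by 0.49 on the log2 scale (adjusted p = 0.0174), and *Lin28a*, the repressor of let-7 processing, by 0.88 (adjusted p = 0.00637), both under the fold threshold. *L1td1*, an RNA-binding protein derived from a transposon, fell by 1.07 on the log2 scale (adjusted p = 0.00324). *L1td1* lost its call without day 4 replicate 1 (range -1.22 to -0.95, adjusted p up to 0.0205). Without day 0 replicate 1, 2 members rose. The member that rose in the fit to all 6 libraries was *Esrp1*, a splicing regulator of epithelia, from 10.1, 4.18 and 2.8 TPM to 27.8, 25.2 and 28.2 TPM.

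Targets of LIF signalling were among the largest falls. *Socs3*, the feedback inhibitor that STAT3 induces, was at 120.0, 119 and 119 TPM on day 0 and 5.26, 7.23 and 5.54 TPM on day 4. The libraries of each day lay close together, and 5.04% of the level was left, a log2 fold change of -4.11 ± 0.13 (SE, adjusted p = 2.22e-05). *Bcl3*, a nuclear IκB protein, went from 28.7, 30.5 and 21.1 TPM to 3.91, 2.89 and 2.55 TPM, with a log2 fold change of -2.75 ± 0.20 (SE, adjusted p = 0.000309). Of 19 genes of the LIF receptor and STAT3 target list, 7 fell, 1 rose and 11 were not called, with a median of -0.77. *Klf4*, *Gbx2* and *Tfcp2l1* stand in both this list and the naive one. The member that rose was *Ier3*, a stress-induced survival gene, from 25.5, 7.71 and 8.85 TPM to 42.95, 33.9 and 45.1 TPM (log2 fold change 1.65 ± 0.39 SE, adjusted p = 0.0212). *Ier3* lost its call without day 0 replicate 2, day 0 replicate 3 or day 4 replicate 3 (range 1.35 to 2.16, adjusted p up to 0.0759).

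The formative and primed epiblast genes moved the other way. Of 24 tested, 17 rose, 2 fell and 5 were not called, the median log2 fold change was 1.98, and the summed level went from 746, 530.5 and 573 TPM to 1651, 1909 and 1968 TPM. *Fgf5*, the growth factor that defines the post-implantation epiblast, lies on chromosome 5 from 98254184 to 98277030. It stood at 1.36, 0.2096 and 0.0218 TPM on day 0 and 29.9, 42.6 and 37.99 TPM on day 4, a log2 fold change of 4.71 ± 0.32 (SE, adjusted p = 0.000256), and the day 0 libraries were all at or below 1.36 TPM. *Pim2*, an X-linked serine/threonine kinase, was at 36.3, 12.2 and 11.9 TPM on day 0 and 173, 346 and 349.7 TPM on day 4 and changed by 3.90 ± 0.44 (SE, adjusted p = 0.00163). *Enpp2*, the enzyme autotaxin that makes lysophosphatidic acid, went from 1.698, 0.408 and 0.359 TPM to 15.7, 23.5 and 29.4 TPM (log2 fold change 3.74 ± 0.33 SE, adjusted p = 0.000667). *Sall2*, a zinc finger factor of the SALL family, was at 2.08, 1.67 and 1.84 TPM on day 0 and 12.7, 36.4 and 30.9 TPM on day 4 (log2 fold change 3.15 ± 0.35 SE, adjusted p = 0.00154). *Otx2*, the homeobox factor that directs OCT4 to new enhancers, was at 25.3, 16.3 and 13.4 TPM on day 0 and 158, 130.5 and 141 TPM on day 4 and changed by 2.94 ± 0.21 (SE, adjusted p = 0.000309). Without replicate 1 of both days, 19 formative genes rose and 18 naive genes fell. In *Fgf5*, *Pim2*, *Enpp2* and *Otx2*, day 0 replicate 1 was the highest of the day 0 libraries, and it still lay below every day 4 library. The 2 members that fell were *Etv4*, an ETS factor downstream of FGF signalling (71.98 to 15.1 TPM, log2 fold change -2.19 ± 0.16 (SE, adjusted p = 0.000348)), and *Myc*, the growth regulator (20.8 to 7.63 TPM, -1.34 ± 0.17 SE, adjusted p = 0.00229).

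**Figure D2:**
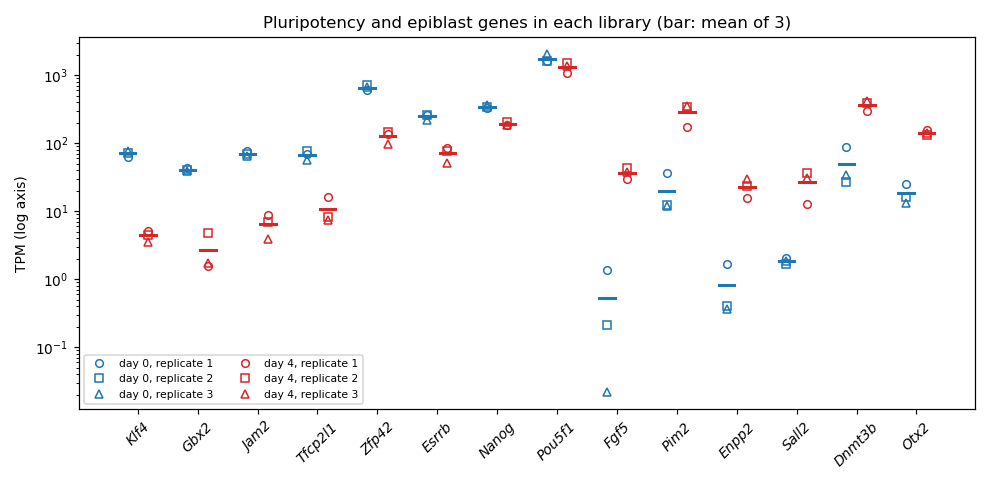
TPM on a log axis in each of the 6 libraries for 8 pluripotency genes (left) and 6 formative genes (right), with day 0 in blue, day 4 in red, a symbol for each replicate and a bar at the mean of 3. The day 0 and day 4 points are separated for each gene, widely for *Klf4* and *Fgf5* and narrowly for *Nanog* and *Pou5f1*.

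The 250 bases before the RefSeq start of 4 of these genes show what kind of promoter lies behind the 2 largest falls and the 2 largest rises among the markers the study follows. The windows are chr4:55532476-55532725 (minus strand) for *Klf4*, chr8:43307010-43307259 (minus strand) for *Zfp42*, chr5:98253934-98254183 (plus strand) for *Fgf5* and chr2:153649199-153649448 (plus strand) for *Dnmt3b*. They are given 5′ to 3′ in the direction of the gene, from the RefSeq promoter table of build GRCm38.p6, the assembly of mm10. Capitals mark matches, on either strand, to the octamer ATGCAAAT, the ESRRB letters TCAAGGTCA, the SOX letters ATTGTT, the GC box GGGCGG, the CCAAT box or the E-box CACGTG.
Klf4: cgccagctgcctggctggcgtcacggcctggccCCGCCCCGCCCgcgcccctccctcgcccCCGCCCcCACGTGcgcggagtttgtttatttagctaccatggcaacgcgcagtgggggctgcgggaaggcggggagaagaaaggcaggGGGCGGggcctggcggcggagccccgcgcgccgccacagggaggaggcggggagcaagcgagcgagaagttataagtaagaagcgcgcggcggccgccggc
Zfp42: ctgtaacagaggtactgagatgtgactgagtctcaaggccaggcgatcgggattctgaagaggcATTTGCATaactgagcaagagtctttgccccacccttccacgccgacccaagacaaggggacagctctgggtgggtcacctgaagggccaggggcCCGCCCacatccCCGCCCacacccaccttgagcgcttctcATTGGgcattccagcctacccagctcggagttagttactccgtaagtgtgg
Fgf5: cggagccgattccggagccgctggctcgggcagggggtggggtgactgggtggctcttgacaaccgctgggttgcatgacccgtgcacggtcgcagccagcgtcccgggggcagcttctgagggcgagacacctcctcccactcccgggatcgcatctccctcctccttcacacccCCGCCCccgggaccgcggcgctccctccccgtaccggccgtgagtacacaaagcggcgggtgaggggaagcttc
Dnmt3b: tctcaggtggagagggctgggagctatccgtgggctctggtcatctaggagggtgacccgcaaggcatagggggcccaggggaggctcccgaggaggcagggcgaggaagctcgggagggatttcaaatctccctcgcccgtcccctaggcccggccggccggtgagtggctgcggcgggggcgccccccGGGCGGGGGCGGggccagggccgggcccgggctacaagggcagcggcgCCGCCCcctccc
The share of G and C was 74.0% for *Klf4*, 58.4% for *Zfp42*, 70.8% for *Fgf5* and 75.2% for *Dnmt3b*, beside a median of 52.4% and quartiles of 45.2% and 61.2% over the 32851 promoter windows of the table. *Zfp42* thus lay within the quartiles and the others above them. The count of CpG was 32, 9, 24 and 21, beside a median of 6. Each held at least 1 GC box, which 32.7% of all windows hold, and matches in *Klf4* and *Dnmt3b* overlap or adjoin each other. *Zfp42* alone of the 4 held the octamer, starting 186 bases before the start and found in 1.60% of all windows, and a CCAAT box (33.8%). *Klf4* held an E-box (6.02%). None held the ESRRB letters (0.387%) or the SOX letters (9.42%).

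Both de novo DNA methyltransferase genes rose, and both *Tet1* and *Tet2*, genes of methylcytosine dioxygenases, fell. *Dnmt3b*, the de novo methyltransferase of the epiblast, on chromosome 2 from 153649450 to 153687730, was at 87.2, 26.9 and 34.05 TPM on day 0 and 298, 387 and 424 TPM on day 4. Every day 4 library was above 297 TPM, and the log2 fold change was 3.05 ± 0.39 (SE, adjusted p = 0.00234). *Dnmt3a*, its paralog, was at 50.5, 34.9 and 48.9 TPM on day 0 and 119.6, 139 and 124 TPM on day 4 and changed by 1.51 ± 0.15 (SE, adjusted p = 0.00114). Their cofactor *Dnmt3l* was at 250.1, 112 and 153 TPM on day 0 and 159, 128 and 124 TPM on day 4, overlapping between days (-0.25, adjusted p = 0.511), and the maintenance enzyme *Dnmt1* changed by -0.35 (adjusted p = 0.0606). *Tet1*, whose product oxidises methylcytosine, went from 116, 119.6 and 108 TPM to 33.05, 43.5 and 34.6 TPM (log2 fold change -1.61 ± 0.13 SE, adjusted p = 0.00043) and *Tet2* from 31.8, 27.8 and 31.2 TPM to 8.53, 7.58 and 4.33 TPM (-2.04 ± 0.22 SE, adjusted p = 0.00149). *Zfp57*, the zinc finger protein that keeps methylation at imprinted regions, fell to 25.5% of its day 0 mean, from 282, 244 and 245 TPM to 60.2, 85.5 and 50.6 TPM (-1.99 ± 0.18 SE, adjusted p = 0.000734). Its corepressor *Trim28* changed by -0.64 (adjusted p = 0.00726), short of the fold threshold. *Apobec1*, a cytidine deaminase, also fell (12.04 to 3.99 TPM). In this list of 18 genes tested, 2 rose, 4 fell and 12 were not called. Among 26 Polycomb genes tested, 1 rose and 1 fell, near the shares of 3.76% and 4.48% over all genes. *Yaf2*, a subunit of variant PRC1, rose (7.99 to 19.8 TPM, 1.22 ± 0.18 SE, adjusted p = 0.00436). *Epop*, a PRC2 partner of embryonic stem cells, fell (131 to 55.2 TPM, -1.23 ± 0.18 SE, adjusted p = 0.00442). There were 2 falls without day 0 replicate 1 or day 4 replicate 2.

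Markers of primitive and visceral endoderm gave some of the largest rises and also the widest spread between replicates. *Afp*, the serum protein alpha-fetoprotein of the visceral endoderm, was listed at 0 in all 3 day 0 libraries and was at 255, 20.2 and 76.7 TPM on day 4. *Ttr*, transthyretin, was at 0.668, 0 and 0 TPM on day 0 and 125, 20.6 and 58.98 TPM on day 4 (log2 fold change 5.53 ± 0.57 SE, adjusted p = 0.00121). *Apoa1*, an apolipoprotein, was at 0.164, 0.452 and 0.501 TPM on day 0 and 125, 17.3 and 39.4 TPM on day 4 (5.05 ± 0.59 SE, adjusted p = 0.00191). *Apob*, which carries lipids out of the same cells, was at 0.296, 0.0772 and 0.0872 TPM on day 0 and 33.3, 5.74 and 18.2 TPM on day 4 (3.84 ± 0.52 SE, adjusted p = 0.00304). In these 4 genes the day 4 libraries stood in the same order, with replicate 1 the highest and replicate 2 the lowest. *Cited1*, a transcriptional coactivator, was at 6.22, 0.574 and 1.74 TPM on day 0 and 89.2, 9.78 and 45.8 TPM on day 4 (3.50 ± 0.80 SE, adjusted p = 0.0195). *Cited1* lost its call without day 0 replicate 2, day 0 replicate 3 or day 4 replicate 3 (range 2.83 to 4.37, adjusted p up to 0.0743). Of the 27 markers tested, 5 rose, none fell and 22 were not called, and the median log2 fold change was 1.34.

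A fit that blocked on replicate number called 18 of the 27 higher, although the labels do not say that a number marks libraries of 1 assay. With all 11 E14Tg2a libraries in the fit, 8 were called higher. Without the block, neither the lineage regulators *Gata4* and *Sox17* nor the endocytic genes *Dab2*, *Cubn* and *Amn* were called. With it all of these were. *Gata6*, which opens the primitive endoderm programme, was at 11.8, 0.938 and 2.08 TPM on day 0 and 14.9, 1.96 and 7.91 TPM on day 4, with a log2 fold change of 0.82 ± 0.78 (SE, adjusted p = 0.478). *Gata4* was at 13.02, 1.18 and 1.49 TPM on day 0 and 22.4, 3.599 and 11.3 TPM on day 4, with 1.37 ± 0.80 (SE, adjusted p = 0.243). *Sox17*, an HMG factor of the endoderm, was at 14.9, 1.11 and 1.07 TPM on day 0 and 23.3, 3.66 and 14.6 TPM on day 4, with 1.56 ± 0.87 (SE, adjusted p = 0.227). In each of these, day 0 replicate 1 was above day 4 replicate 2, so the groups overlapped. The same held for the endocytic proteins *Dab2* (58.2, 2.67 and 4.27 TPM on day 0 and 208, 29.7 and 129 TPM on day 4, adjusted p = 0.0704), *Cubn*, or cubilin (13.01, 0.441 and 1.14 TPM on day 0 and 47.8, 5.29 and 26.9 TPM on day 4, adjusted p = 0.0956), and *Amn*, its membrane anchor (16.2, 1.5 and 1.38 TPM on day 0 and 67.3, 8.14 and 26.2 TPM on day 4, adjusted p = 0.0885). The count of endoderm markers that rose was 14 without day 0 replicate 1, 3 without day 0 replicate 2, 3 without day 0 replicate 3, 10 without day 4 replicate 2 and 3 without day 4 replicate 3, and 16 without replicate 1 of both days. Without day 0 replicate 1, *Gata4* (log2 fold change 2.24, adjusted p = 0.0402), *Sox17* (2.53, 0.0316), *Dab2* (4.42, 0.00856), *Col4a1* (2.58, 0.0383), a chain of basement membrane collagen, *Cubn* (3.54, 0.0221) and *Amn* (3.40, 0.0206) were called, while *Gata6* (1.61, 0.120) and the PDGF receptor gene *Pdgfra* (1.79, 0.0900) were not. These genes were chosen after their values were seen.

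**Figure D3:**
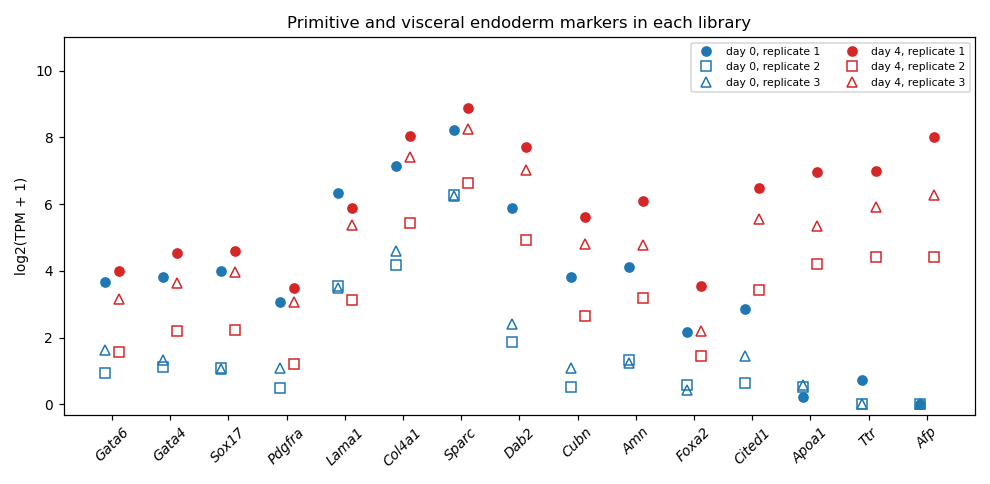
The log2(TPM + 1) of 15 primitive and visceral endoderm markers in each library, with day 0 in blue, day 4 in red and replicate 1 filled. For *Gata6*, *Gata4*, *Sox17*, *Dab2*, *Cubn* and *Amn*, replicate 1 of day 0 lies above replicate 2 of day 4, whereas for *Apoa1*, *Ttr* and *Afp* every day 4 library lies above every day 0 library.

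Several other large rises followed the same order of libraries on day 4. *Clic6*, a chloride channel protein, was at 2.62, 0.827 and 0.741 TPM on day 0 and 75.8, 11.6 and 36.8 TPM on day 4 (log2 fold change 3.88 ± 0.61 SE, adjusted p = 0.00543). *Ctsh*, a lysosomal cysteine protease, was at 13.9, 2.22 and 2.201 TPM on day 0 and 199.9, 21.5 and 90.6 TPM on day 4 (3.80 ± 0.85 SE, adjusted p = 0.0182). *Ctsh* lost its call without day 0 replicate 2, day 0 replicate 3 or day 4 replicate 3 (range 3.08 to 4.66, adjusted p up to 0.0716). *Car4*, a membrane-bound carbonic anhydrase, was at 26.2, 1.21 and 3.32 TPM on day 0 and 247, 123 and 166 TPM on day 4 (4.76 ± 0.80 SE, adjusted p = 0.00692), with day 0 replicate 1 again above the other two. *Rbp4*, the carrier of retinol, was at 3.99, 4.18 and 3.399 TPM on day 0 and 113, 12.2 and 56.9 TPM on day 4 (3.19 ± 0.66 SE, adjusted p = 0.0145). *Rbp4* lost its call without day 0 replicate 2, day 0 replicate 3 or day 4 replicate 3 (range 2.51 to 4.07, adjusted p up to 0.0541). By contrast *Cxcl12*, a chemokine, was even across the day 4 libraries, at 1.32, 0.353 and 0.218 TPM on day 0 and 18.4, 25.2 and 23.99 TPM on day 4 (3.90 ± 0.27 SE, adjusted p = 0.000282), with replicate 1 the lowest on day 4. On day 0 it too was highest in replicate 1. The part of endoderm cells in these rises was not tested.

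*T* (brachyury), the defining factor of the streak, was at 1.13, 0.717 and 0.0981 TPM on day 0 and 0.543, 3.81 and 0.259 TPM on day 4, with a log2 fold change of 0.41 ± 0.51 (SE, adjusted p = 0.587). *Wnt3*, the ligand that starts the streak, stayed below the 1 TPM mean in both groups and was not tested. It stood at 0.515, 0.121 and 0.0763 TPM on day 0 and 0.391, 1.297 and 0.6898 TPM on day 4. *Mixl1* and *Mesp1* were also below this minimum, with means of 0.671 and 0.03598 TPM on day 4. Of 13 list members tested, 3 rose and 1 fell, with a median log2 fold change of 0.72. *Fgf8* rose from 2.55, 0.353 and 0.142 TPM to 6.63, 15.6 and 6.68 TPM (2.49 ± 0.48 SE, adjusted p = 0.0109) and *Eomes*, a T-box factor, from 2.92, 1.91 and 1.32 TPM to 12.3, 9.16 and 6.67 TPM (1.77 ± 0.27 SE, adjusted p = 0.00515). *Lhx1*, a LIM homeobox gene of the anterior streak and visceral endoderm, was at 0, 0.0331 and 0 TPM on day 0 and 5.61, 2.0 and 2.03 TPM on day 4. *Cdx1* fell from a mean of 1.41 to 0.0867 TPM. *Cdx1* lost its call without day 0 replicate 1 or day 4 replicate 3 (range -1.22 to -0.98, adjusted p up to 0.051). The summed level of the list was 34.8, 13.8 and 12.2 TPM on day 0 and 60.1, 50.7 and 40.1 TPM on day 4.

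Of 11 neuroectoderm genes tested, 2 rose and 3 fell. *Fabp7*, a fatty acid binding protein of neural progenitors, rose to 1.74, 4.96 and 3.298 TPM and *Sox11* to 6.92, 10.5 and 8.81 TPM. *Tubb3*, a neuronal tubulin also present in stem cells, fell from 48.3, 46.8 and 56.7 TPM to 13.8, 14.5 and 14.4 TPM (-1.76 ± 0.12 SE, adjusted p = 0.000256). Without day 4 replicate 1, 5 neuroectoderm genes rose. Trophoblast genes gave 1 rise and 2 falls of 7, heart muscle genes 1 and 1 of 8, and blood and endothelial genes 1 and 1 of 7. Over all genes tested 3.76% rose and 4.48% fell, and in lists this small a single gene sets the share. These counts are not read as results about the lists. The heart muscle fall was lost without day 0 replicate 1 or day 4 replicate 3, and the blood fall without day 0 replicate 1. The blood rise, *Etv2*, was lost without day 0 replicate 2, day 0 replicate 3, day 4 replicate 2 or day 4 replicate 3. Without day 4 replicate 2 another blood gene rose in its place. Without day 4 replicate 2, 2 trophoblast genes rose. *Tfeb*, a regulator of lysosome genes in the trophoblast list, fell from 21.8, 24.01 and 25.3 TPM to 4.01, 2.79 and 2.59 TPM (-2.59 ± 0.17 SE, adjusted p = 0.000256). Germ cell genes gave 1 rise and 3 falls of 15, among them *Nanos3*, an RNA-binding translational repressor (2.81 to 0.318 TPM, -1.51 ± 0.26 SE, adjusted p = 0.00779). The germ cell rise, *Dppa3*, was lost without the libraries given above, and 2 rose without day 4 replicate 2. No gene of the two-cell-like state was called among 8 tested. All 8 were lower on day 4, where the median over all genes was -0.094. The median departure of the list from the other libraries of the day was 1.22 log2 in day 0 replicate 1 and 1.07 in day 4 replicate 1. *Zscan4f*, a zinc finger marker of that state, overlapped between days at 23.9, 3.95 and 11.7 TPM on day 0 and 13.3, 5.37 and 2.21 TPM on day 4. *Eif1a*, a translation initiation factor, changed by -0.64 (adjusted p = 0.00506).

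Ligands, receptors and feedback genes of the signalling pathways moved in both directions. In the FGF-ERK list, 5 of 24 rose and 2 fell. Besides *Fgf5* and *Fgf8*, the feedback phosphatase *Dusp4* rose from 16.2, 6.26 and 7.35 TPM to 46.3, 46.5 and 53.2 TPM (2.29 ± 0.30 SE, adjusted p = 0.00268) and the inhibitor *Spry1* from 9.57, 7.88 and 6.48 TPM to 24.4, 19.96 and 18.4 TPM (1.29 ± 0.18 SE, adjusted p = 0.00331), while its relative *Spry4* fell from 51.7, 39.4 and 26.8 TPM to 10.4, 11.98 and 10.02 TPM (-1.73 ± 0.22 SE, adjusted p = 0.00267). *Dusp6*, another ERK phosphatase, changed by 0.51 (adjusted p = 0.0495). In the NODAL list, 4 of 21 rose and 4 fell. *Inhbb*, the activin B subunit, on chromosome 1 from 119415465 to 119422248, had the largest fall of a protein-coding gene, from 36.2, 50.95 and 40.2 TPM to 1.33, 0.951 and 0.248 TPM (-4.59 ± 0.25 SE, adjusted p = 0.000121). *Tdgf1*, the NODAL coreceptor CRIPTO, fell from 645, 585 and 618 TPM to 253, 257 and 218 TPM (-1.34 ± 0.099 SE, adjusted p = 0.000338). The ligand gene *Nodal* was at 39.4, 37.1 and 32.9 TPM on day 0 and 26.3, 31.5 and 19.1 TPM on day 4 (-0.51, adjusted p = 0.0803). The proprotein convertase *Pcsk6* (18.4 to 5.18 TPM) and the inhibitory SMAD gene *Smad7* (32.03 to 11.7 TPM) fell too. *Foxh1*, the DNA-binding partner of SMAD2, rose from 23.4, 20.4 and 19.98 TPM to 42.98, 60.5 and 59.4 TPM (1.30 ± 0.16 SE, adjusted p = 0.002), as did the target *Cer1* (0.0146 to 3.51 TPM) and the ligand *Gdf1* (2.005 to 6.29 TPM).

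In the BMP list, 3 of 17 genes fell and none rose, while 1 rose without day 0 replicate 1, day 4 replicate 1 or day 4 replicate 2. *Bmp4* itself went from 23.9, 27.5 and 35.6 TPM to 6.08, 13.1 and 3.65 TPM (-1.93 ± 0.37 SE, adjusted p = 0.0109), whereas the target *Id1* was at 66.3, 73.2 and 56.9 TPM on day 0 and 63.8, 54.2 and 62.8 TPM on day 4 (-0.11, adjusted p = 0.538). In the WNT list, 7 of 23 rose and 4 fell. *Lef1*, a nuclear effector, went from 3.99, 1.09 and 2.31 TPM to 14.7, 16.03 and 14.8 TPM (2.31 ± 0.29 SE, adjusted p = 0.00249). The receptors *Fzd7* and *Fzd5* moved apart, with *Fzd7* at 38.3, 35.5 and 31.4 TPM on day 0 and 100.4, 108 and 102 TPM on day 4 (1.54 ± 0.11 SE, adjusted p = 0.000309) and *Fzd5* at 36.8, 49.1 and 41.9 TPM on day 0 and 12.4, 12.7 and 11.5 TPM on day 4 (-1.71 ± 0.14 SE, adjusted p = 0.000493). Among the secreted modulators, *Sfrp2* rose (7.74 to 26.1 TPM). *Notum*, a hydrolase that inactivates WNT, fell (13.6 to 2.39 TPM). The number of WNT genes that rose was 4 without day 0 replicate 2, 4 without day 0 replicate 3 and 4 without day 4 replicate 1. In the retinoic acid list, 6 of 14 rose and 1 fell. *Cyp26a1*, which breaks down retinoic acid, was at 1.895, 0.254 and 0.262 TPM on day 0 and 72.9, 11.7 and 37.6 TPM on day 4 (4.32 ± 0.61 SE, adjusted p = 0.00386). On day 4 *Cyp26a1* and the list member *Rbp4*, given above, were highest in replicate 1 and lowest in replicate 2, again as in the endoderm markers, whose part was not tested. *Crabp2* and *Crabp1*, the cytosolic binding proteins, moved in opposite directions, from 10.02, 3.52 and 3.37 TPM to 22.6, 33.6 and 51.01 TPM (2.54 ± 0.41 SE, adjusted p = 0.00591) for the former and from 49.5, 56.4 and 53.1 TPM to 15.0, 12.04 and 8.53 TPM (-2.10 ± 0.19 SE, adjusted p = 0.000717) for the latter. *Dhrs3*, a retinaldehyde reductase, rose too (0.715 to 4.76 TPM).

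Of 22 epithelial junction and keratin genes tested, 8 rose and none fell, with a median log2 fold change of 0.77. *Cldn6*, a claudin of the embryonic epithelium, was at 57.4, 17.3 and 14.5 TPM on day 0 and 266, 119.5 and 183 TPM on day 4 (2.83 ± 0.50 SE, adjusted p = 0.00792), and *Krt18*, a simple keratin, at 54.7, 8.97 and 5.04 TPM on day 0 and 186, 86.5 and 137 TPM on day 4 (3.13 ± 0.73 SE, adjusted p = 0.021). *Krt18* lost its call without day 0 replicate 2, day 0 replicate 3, day 4 replicate 1 or day 4 replicate 3 (range 2.48 to 4.08, adjusted p up to 0.0806). *Cldn6* and *Krt18* were highest in replicate 1 on each day and lowest in replicate 2 on day 4, the order of the endoderm markers, whose part was not tested. Over the list the median departure from the other libraries of the day was 0.656 log2 in day 0 replicate 1, 0.439 in day 4 replicate 1 and -0.379 in day 4 replicate 2. E-cadherin (*Cdh1*) was higher by 0.72 on the log2 scale (adjusted p = 0.00706), and N-cadherin (*Cdh2*) rose from 1.72, 0.607 and 0.469 TPM to 4.74, 6.41 and 6.28 TPM (1.86 ± 0.27 SE, adjusted p = 0.00415). The count of 8 became 4 without day 0 replicate 2, 5 without day 0 replicate 3 and 5 without day 4 replicate 1, and 10 without day 0 replicate 1. In the mesenchymal list, 1 of 13 rose and 2 fell. There were 3 rises without day 0 replicate 1, and 1 fall without day 0 replicate 2, day 4 replicate 1 or day 4 replicate 3. *Vim*, vimentin, fell from 71.1, 85.5 and 79.3 TPM to 20.9, 35.8 and 34.2 TPM (-1.38 ± 0.20 SE, adjusted p = 0.00422), and fibronectin (*Fn1*) changed by -0.74 (adjusted p = 0.0149). Of 24 genes of basement membranes and matrix receptors, 2 fell and none rose, and 3 rose without day 0 replicate 1. The 2 falls became 1 without day 0 replicate 1, 0 without day 0 replicate 2, 1 without day 0 replicate 3 and 0 without day 4 replicate 3. *Nid1*, nidogen, was at 49.4, 38.1 and 33.5 TPM on day 0 and 23.1, 8.26 and 9.82 TPM on day 4 (-1.60 ± 0.34 SE, adjusted p = 0.0155). *Nid1* lost its call without day 0 replicate 2 or day 4 replicate 3 (range -2.03 to -1.34, adjusted p up to 0.057). The actin-binding peptide gene *Tmsb4x*, among the 6 largest falls in TPM, was at 551, 486 and 518 TPM on day 0 and 158, 159 and 164 TPM on day 4 (-1.68 ± 0.087 SE, adjusted p = 0.000104). *Emp1*, a membrane protein, went from 24.1, 36.5 and 34.7 TPM to 1.33, 1.84 and 1.8 TPM (-3.61 ± 0.20 SE, adjusted p = 0.00012). *Mras*, a RAS-family GTPase, fell to 2.88% of day 0, from 48.6, 63.8 and 61.6 TPM to 1.77, 2.05 and 1.19 TPM (-4.47 ± 0.18 SE, adjusted p = 4.12e-05), and *Krt42*, a type I keratin of stem cells, from 35.2, 33.4 and 31.9 TPM to 3.09, 3.502 and 1.35 TPM.

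The ATF4 response to amino acid shortage covers amino acid transport and synthesis. Of 36 members tested, 12 fell and none rose, 31 were lower on day 4, and the median log2 fold change was -0.78. *Atf4* itself was at 257, 251 and 281 TPM on day 0 and 151, 154 and 146 TPM on day 4 (-0.80 ± 0.088 SE, adjusted p = 0.00152), short of the fold threshold. *Slc7a1*, a cationic amino acid transporter, was at 34.6, 31.3 and 29.8 TPM on day 0 and 11.98, 9.36 and 8.89 TPM on day 4 (-1.58 ± 0.15 SE, adjusted p = 0.00077), *Nupr1*, a stress-induced chromatin protein, at 60.4, 55.6 and 64.4 TPM on day 0 and 32.1, 13.8 and 14.8 TPM on day 4 (-1.62 ± 0.28 SE, adjusted p = 0.00786), and *Cth*, which makes cysteine from cystathionine, at 95.5, 77.2 and 91.9 TPM on day 0 and 45.8, 31.0 and 24.7 TPM on day 4 (-1.40 ± 0.21 SE, adjusted p = 0.00481). The 12 calls ranged from 8 to 13 over the fits with 1 library left out. Glycolysis gave 2 rises and 1 fall of 24, beside 3.76% higher and 4.48% lower over all genes. The rises were 4 without day 0 replicate 1, 1 without day 0 replicate 2, 1 without day 0 replicate 3 and 1 without day 4 replicate 1, and the fall was lost without day 4 replicate 3. The phosphofructokinase genes moved apart, with the muscle form *Pfkm* at 25.8, 21.8 and 21.7 TPM on day 0 and 49.8, 52.99 and 54.2 TPM on day 4 (1.15 ± 0.12 SE, adjusted p = 0.00106) and the platelet form *Pfkp* at 250.1, 246 and 193 TPM on day 0 and 131, 100.1 and 82.5 TPM on day 4 (-1.14 ± 0.18 SE, adjusted p = 0.00556). *Pfkp* lost its call without day 4 replicate 3 (range -1.32 to -0.99, adjusted p up to 0.0292). In the hypoxia list 3 of 21 rose. *Ddit4*, an inhibitor of mTORC1, was at 208, 113 and 107 TPM on day 0 and 506, 482 and 667 TPM on day 4 (2.00 ± 0.25 SE, adjusted p = 0.00237) and *Adm*, the peptide adrenomedullin, at 3.34, 0.309 and 0.142 TPM on day 0 and 11.8, 8.19 and 12.1 TPM on day 4 (2.63 ± 0.48 SE, adjusted p = 0.00891). Of 34 genes of cholesterol and fatty acid synthesis, 32 were not called and 2 rose, beside 3.76% higher over all genes. The rises included the desaturase gene *Fads2* (31.1 to 74.5 TPM, 1.24 ± 0.12 SE, adjusted p = 0.00077).

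Lysosome and autophagy genes gave 3 rises and 2 falls of 23, beside 3.76% higher and 4.48% lower over all genes. The protease *Ctsc* (12.1, 2.88 and 3.03 TPM on day 0 and 100.5, 19.1 and 50.4 TPM on day 4) and the sialidase *Neu1* (15.5, 10.2 and 9.55 TPM on day 0 and 50.97, 25.4 and 34.8 TPM on day 4) rose, whereas 2 transcriptional regulators, *Tfeb* and *Mitf*, had lower levels and were called as falls, *Mitf* from 11.6, 16.8 and 12.6 TPM to 2.01, 2.29 and 1.26 TPM (-2.36 ± 0.22 SE, adjusted p = 0.000734). In *Ctsc* and *Neu1*, replicate 1 was the highest library of each day and replicate 2 the lowest on day 4, the order seen in the endoderm markers, whose part in these rises was not tested. *Ctsc* lost its call without day 0 replicate 2, day 0 replicate 3 or day 4 replicate 3 (range 2.44 to 3.62, adjusted p up to 0.0644). The rises were 6 without day 0 replicate 1, 1 without day 0 replicate 2, 1 without day 0 replicate 3, 5 without day 4 replicate 2 and 1 without day 4 replicate 3. *Mt1*, a metallothionein that binds zinc and copper, was at 326, 219 and 169 TPM on day 0 and 839, 400.1 and 592 TPM on day 4 (1.34 ± 0.30 SE, adjusted p = 0.0187). *Mt1* lost its call without day 0 replicate 2, day 0 replicate 3 or day 4 replicate 3 (range 1.08 to 1.61, adjusted p up to 0.0689). In the immediate early and heat shock list, 2 of 19 rose and 1 fell. The rises were 0 without day 0 replicate 2, 0 without day 0 replicate 3, 1 without day 4 replicate 1 and 0 without day 4 replicate 3. *Hspb1*, a small heat shock protein, was at 737, 473 and 554 TPM on day 0 and 244, 146 and 138 TPM on day 4 (-1.76 ± 0.24 SE, adjusted p = 0.00323), and the chaperone *Hsp90aa1* changed by -0.70 (adjusted p = 0.0101). Of 21 p53 targets 1 fell, a share near the 4.48% over all genes. It was *Perp*, which encodes a desmosomal membrane protein (20.9 to 6.903 TPM, -1.47 ± 0.17 SE, adjusted p = 0.00179), with 2 falls without day 0 replicate 1, day 0 replicate 2 or day 4 replicate 2.

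Of 36 imprinted genes tested, 7 rose and 2 fell. *Snrpn*, expressed from the paternal allele, was at 112, 77.7 and 71.97 TPM on day 0 and 217, 298 and 251 TPM on day 4 (1.55 ± 0.19 SE, adjusted p = 0.002), and *Snhg14*, the long RNA of the same region of chromosome 7, at 35.1, 29.1 and 28.6 TPM on day 0 and 107, 104 and 107 TPM on day 4 (1.75 ± 0.11 SE, adjusted p = 0.000256), with no other SNHG host gene called among 16. *H19*, a maternally expressed noncoding RNA, was at 71.5, 12.6 and 12.4 TPM on day 0 and 665, 80.5 and 224 TPM on day 4 (3.29 ± 0.85 SE, adjusted p = 0.0301), and its neighbour *Igf2*, the paternally expressed growth factor, at 13.5, 1.28 and 3.07 TPM on day 0 and 49.97, 14.1 and 24.98 TPM on day 4 (2.40 ± 0.68 SE, adjusted p = 0.0395). On day 4 both stood in the library order of the endoderm markers, whose part was not tested. Both calls depended on single libraries: *H19* was lost without day 0 replicate 2, day 0 replicate 3, day 4 replicate 1 or day 4 replicate 3 (range 2.52 to 4.09, adjusted p up to 0.106), and *Igf2* without day 0 replicate 2, day 0 replicate 3, day 4 replicate 1 or day 4 replicate 3 (range 1.82 to 3.16, adjusted p up to 0.12). *Phlda2*, which restrains placental growth, fell from 121, 99.9 and 113 TPM to 41.1, 45.8 and 49.5 TPM (-1.27 ± 0.12 SE, adjusted p = 0.000734). *Nnat*, a membrane proteolipid, rose (9.34 to 32.1 TPM). The 7 rises became 3 without day 0 replicate 2, 4 without day 0 replicate 3, 4 without day 4 replicate 1 and 4 without day 4 replicate 3. MHC class I presentation gave 6 rises and no fall of 19, all 19 were higher on day 4, and the median was 0.76. *Psmb8*, a subunit of the immunoproteasome, was at 2.97, 0.309 and 0.436 TPM on day 0 and 27.7, 10.3 and 12.9 TPM on day 4 (3.08 ± 0.49 SE, adjusted p = 0.00571) and *H2-T22*, a class I heavy chain, at 2.41, 0.805 and 1.22 TPM on day 0 and 10.3, 7.14 and 9.04 TPM on day 4 (2.03 ± 0.27 SE, adjusted p = 0.00272). *B2m*, the light chain, was at 30.6, 18.2 and 22.3 TPM on day 0 and 66.2, 36.5 and 56.4 TPM on day 4 (1.12 ± 0.25 SE, adjusted p = 0.0187). In all 3 genes replicate 1 was the highest library of each day and replicate 2 the lowest on day 4, as in the endoderm markers, whose part here was not tested. The median departure of the list from the other libraries of the day was 0.495 log2 in day 0 replicate 1, 0.323 in day 4 replicate 1 and -0.342 in day 4 replicate 2. *B2m* lost its call without day 0 replicate 2, day 0 replicate 3, day 4 replicate 1 or day 4 replicate 3 (range 0.94 to 1.36, adjusted p up to 0.0729).

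**Figure D4:**
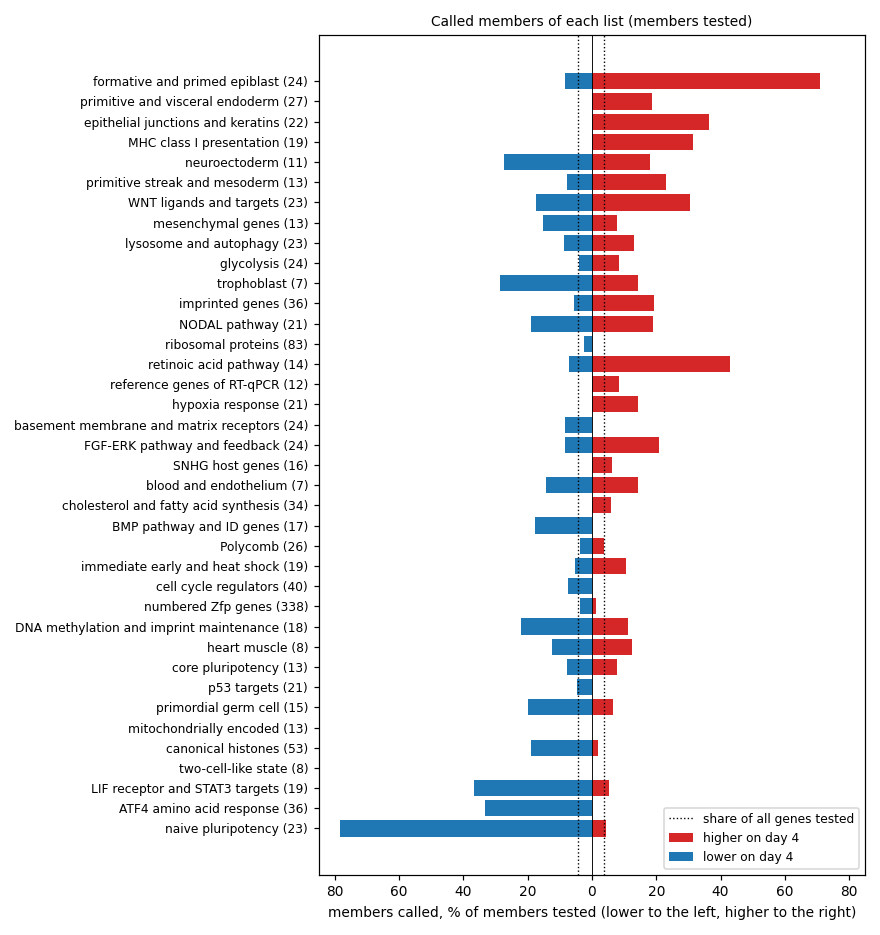
For each gene list with at least 7 members tested, bars give the share of tested members called higher (red, right) and lower (blue, left) on day 4, in order of the median log2 fold change. The dotted lines mark the share over all genes tested, 3.76% higher and 4.48% lower, which the naive and formative lists exceed by the most, in opposite directions.

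Of 83 ribosomal protein genes, 81 were not called and 67 were higher on day 4, with a median log2 fold change of 0.15 and a summed level of 226500, 240900 and 245800 TPM on day 0 and 275300, 265200 and 273000 TPM on day 4. The 2 that fell were paralogs of other ribosomal protein genes, *Rpl10l* (105, 61.96 and 59.6 TPM on day 0 and 31.5, 21.6 and 17.2 TPM on day 4, -1.64 ± 0.27 SE, adjusted p = 0.00658) and *Rpl39l* (77.9, 47.3 and 70.03 TPM on day 0 and 38.7, 15.6 and 18.9 TPM on day 4, -1.46 ± 0.33 SE, adjusted p = 0.0186). *Rpl39l* lost its call without day 0 replicate 3 or day 4 replicate 3 (range -1.83 to -1.20, adjusted p up to 0.0667). None of 13 mitochondrially encoded genes was called and all 13 were lower on day 4 (median -0.44), with *mt-Atp6* at 5253, 6276 and 7497 TPM on day 0 and 4516, 4635 and 5807 TPM on day 4 and *mt-Nd4l* at 4821, 4582 and 3262 TPM on day 0 and 4132, 2371 and 2949 TPM on day 4. Of 40 cell cycle regulators, 37 were not called and 3 fell, beside 4.48% lower over all genes. The falls were *Myc*, *E2f2* (8.65 to 2.05 TPM, -1.67 ± 0.23 SE, adjusted p = 0.0032) and the G1 cyclin gene *Ccnd3* (184 to 81.97 TPM, -1.16 ± 0.10 SE, adjusted p = 0.000667). Canonical histone genes, whose transcripts mostly lack the poly-A tail on which the libraries were selected, gave 10 falls of 53, 1 rise that was lost without day 4 replicate 3, and a median of -0.56. Their copies are nearly identical, so the split of reads between them is uncertain. Of 338 numbered *Zfp* genes, 13 fell, 4 rose and 252 were lower on day 4, with a median of -0.22. Neither share of calls exceeded that over all genes (4.48% lower, 3.76% higher). *Zfp608*, the largest rise, went from 1.36, 0.2096 and 0.218 TPM to 5.85, 9.89 and 8.77 TPM. Of 5 genes of the HOX and CDX list tested out of 26, 1 rose and 1 fell, the latter being *Cdx1*, given above. *Tbp*, the reference of the study's RT-qPCR, was at 52.2, 46.5 and 51.2 TPM on day 0 and 35.5, 41.4 and 38.2 TPM on day 4, a log2 fold change of -0.37 ± 0.11 (SE, adjusted p = 0.0445). Of 12 common reference genes 1 was called, *B2m*, beside 3.76% of all genes higher and 4.48% lower.

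The largest gain in TPM among called genes was that of *2410006H16Rik*, a processed transcript on chromosome 11, from 519.9, 376 and 248 TPM to 1211, 678 and 600.0 TPM. *2410006H16Rik* lost its call without day 0 replicate 2, day 0 replicate 3, day 4 replicate 1, day 4 replicate 2 or day 4 replicate 3 (range 0.80 to 1.37, adjusted p up to 0.12). *Mdk*, the growth factor midkine, went from 259, 352 and 405 TPM to 499, 809 and 771 TPM. *Mdk* lost its call without day 0 replicate 1, day 0 replicate 2, day 4 replicate 2 or day 4 replicate 3 (range 0.84 to 1.24, adjusted p up to 0.0617). *Upp1*, a uridine phosphorylase, fell from 691, 599.9 and 620.1 TPM to 413, 271 and 270.0 TPM. *Upp1* lost its call without day 0 replicate 1, day 4 replicate 2 or day 4 replicate 3 (range -1.23 to -0.93, adjusted p up to 0.0292). *Exosc6*, an exosome subunit, was listed at 0 in all day 0 libraries and at 14.97, 21.8 and 23.2 TPM on day 4. An exact 0 can also be a failed estimate. The snoRNA *Gm26448* and the unclassified transcript *Gm45236* were listed at 0 in all day 4 libraries and at 21.4, 34.3 and 24.9 TPM and 10.8, 16.6 and 4.29 TPM on day 0. The scaRNA *Gm26083* (164, 298 and 523 TPM on day 0 and 24.9, 66.7 and 0 TPM on day 4) and the lincRNA *Gm28625* (141, 85.3 and 9.21 TPM on day 0 and 0.239, 0.0865 and 8.82 TPM on day 4) varied widely within a day, and their calls were lost without day 0 replicate 1, day 0 replicate 2, day 0 replicate 3 or day 4 replicate 1 (range -5.86 to -2.82, adjusted p up to 0.133) and without day 0 replicate 1, day 0 replicate 2, day 4 replicate 1 or day 4 replicate 2 (range -5.55 to -3.65, adjusted p up to 0.0982), respectively.

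By annotation, 513 of the 537 risen genes placed in GENCODE M21 were protein coding, against 518 of the 636 fallen genes and 12572 of the 14174 tested. The fallen genes included 63 long noncoding RNAs and 40 pseudogenes, the risen ones 17 and 5. How many of these classes were tested is not given, so their called shares cannot be set beside 3.76% and 4.48%. On the X chromosome, present once in these male cells, 32 of 503 genes rose (6.36%) and 14 fell (2.78%), beside 3.76% and 4.48% over all genes, with *Pim2*, *Cited1* and *Tmsb4x* among them. These are descriptions and were not tested.

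Libraries of days 6 and 8 give the later levels of these genes. By the study's methods, the aggregates were moved after day 4 to gelatinised dishes at very low density. Days 6 and 8 thus differ from day 4 in attachment as well as in time. Since the genes were chosen by their day 0 and day 4 values, the later levels are descriptions. Of the 541 risen genes, 237 had their highest daily mean on day 4, 99 on day 6 and 205 on day 8, and 70 had a day 8 mean below that of day 0. *Pim2*, *Dnmt3b* and *Otx2* belonged to the first kind. *Pim2* had means of 20.1, 289.5, 204 and 19.6 TPM on days 0, 4, 6 and 8. *Dnmt3b* had 49.4, 369.6, 190.4 and 48.03 TPM, and *Otx2* had 18.3, 143, 61.1 and 10.9 TPM. *Fgf5* was at 36.8 TPM on day 4 and 42.0 TPM on day 6 and at 2.57 TPM on day 8. *H19* was at 256 TPM on day 6 and 2816 TPM on day 8, and *Igf2* at 635 and 4007 TPM. Of the 644 fallen genes, 304 were lowest on day 8, 178 on day 6 and 162 on day 4, and in 54 the day 8 mean was the highest of all. *Esrrb* continued from 71.1 TPM to 14.4 and 4.48 TPM, and *Zfp42* from 127 TPM to 41.96 and 10.2 TPM. *Klf4* stayed low after day 4, with 4.41, 3.62 and 5.602 TPM on days 4, 6 and 8. *Tmsb4x* and *Vim* were above their day 0 means on day 8, at 995 and 790.1 TPM on day 8.

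The later means of 2 pluripotency factors and 4 streak genes were not tested. *Nanog* was at 131 TPM on day 6 and 26.8 TPM on day 8, and *Pou5f1* at 904 and 133 TPM. *T* stood at 1.54 TPM on day 4 and 218 TPM on day 6, *Wnt3* at 0.793 and 28.4 TPM, *Mixl1* at 0.671 and 74.2 TPM, and *Mesp1*, a factor of nascent mesoderm, at 0.03598 and 51.95 TPM.

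**Figure D5:**
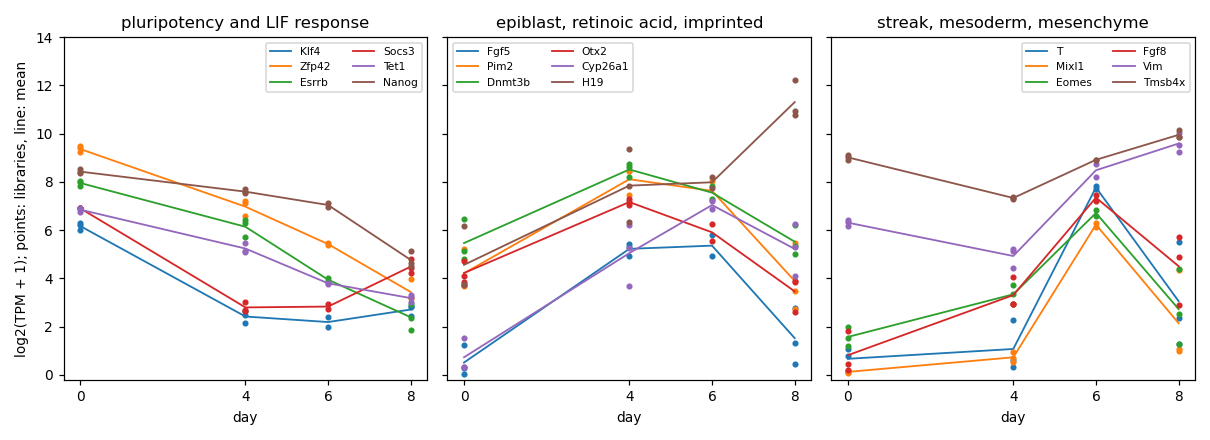
The log2(TPM + 1) of 18 genes on days 0, 4, 6 and 8, with a point for each library (3 each on days 0, 4 and 8, 2 on day 6) and a line through the mean of these log values. Genes of pluripotency and LIF response are on the left, genes of the epiblast, retinoic acid and imprinted loci in the middle, and genes of the streak and mesenchyme on the right. *T* and *Mixl1* are low on day 4 and high on day 6, with *T* above the other day 4 libraries in replicate 2 (3.81 TPM). *Fgf5* and *Dnmt3b* are already high on day 4.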

How the data were processed

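Stranded poly-A RNA-seq of E14Tg2a cells on day 0 and day 4 was compared, 3 libraries each. The authors deposited TPM for 16336 genes, scaled within each library. The submitters' processing notes name STAR, RSEM, DESeq and mm10, without versions. Columns of log2 fold changes and of adjusted p-values in the same table hold the authors' own comparisons as deposited and were not used.

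Here, 14379 genes whose mean reached 1 TPM in either group were fitted on log2(TPM + 1) by limma 3.58.1 in R 4.3.3, with moderated variances that follow expression level, and p-values were adjusted by Benjamini-Hochberg over all genes. TPM do not keep the depth, so no counting interval can be given, and p-values measure the spread between these libraries. The fit was tested on simulated data. The thresholds are those of the study's methods for differentiation. Genes were placed by symbol in GENCODE M21 (98.6% of those tested), and figures were drawn with Python 3.11.15.

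The comparison, the gene lists and the tests were chosen with earlier results of these data known. Named genes are the study's markers with *Tbp*, the 12 largest log2 fold changes in each direction among called genes with separate libraries, the 6 largest differences of mean TPM in each direction, and in each list at most 4 called genes in each direction, or the 2 most abundant where none was called. Others (such as *Gata4*, *Dab2*, *T*, *Atf4* and *Cdh1*) were named after their values were seen. A few genes that the rule names are not reported here. Members of lists and their promoters were matched by symbol. A promoter was found for 74.7% of risen and 66.6% of fallen genes, so a comparison of promoter content between them is void and was left out. Alternatives tried were 0.1 as pseudocount, 5 TPM or nothing as the minimum, median ratio rescaling, the replicate number as a block, all 11 E14Tg2a libraries in the fit, no intensity trend, a fold threshold of 0.5, each library left out and, added after the data were seen, replicate 1 of both days left out.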

Additional observations from a re-analysis of the deposited data

How the results depend on the processing

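With 541 genes higher and 644 lower on day 4, the counts were 696 and 847 with a pseudocount of 0.1, 393 and 456 with a minimum of 5 TPM, 525 and 630 with no minimum, 577 and 664 with all 11 E14Tg2a libraries, and 523 and 627 with no intensity trend. Median ratio rescaling moved the median log2 fold change of all genes from -0.094 to -0.011 and gave 627 higher and 538 lower, a share of 53.8% higher in place of 45.7%. A fold threshold of 0.5 gave 1121 and 1631. Leaving out each library in turn gave 348 to 744 higher and 473 to 728 lower, and leaving out replicate 1 of both days, chosen after seeing the data, gave 804 and 725. Only day 0 replicate 2 moved the higher count by over 1.5 times (348).

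The replicate numbers were not taken to pair the libraries, since the labels do not say that a number marks 1 assay. The study's methods speak of 3 independent assays recovered on each of the days. After removal of the day means, libraries of the same number correlated at 0.334, 0.215 and 0.099. Day 4 replicate 1 correlated at -0.24 and -0.19 with day 0 replicates 2 and 3, and day 0 replicate 1 at -0.28 and -0.14 with day 4 replicates 2 and 3. Day 0 replicate 3 correlated best with day 4 replicate 2. These values do not settle whether a number marks a shared assay. With the replicate block, 626 genes were higher and 686 lower, and 4467 passed the adjusted p in place of 3211. Of the gene lists, it moved the rises of endoderm markers from 5 to 18, of streak and mesoderm genes from 3 to 5, of basement membrane genes from 0 to 3 and of blood and endothelial genes from 1 to 2.

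Of 147 named genes that were called, 110 kept the call with each of the 6 libraries left out. None changed direction under any alternative run, but this was largely fixed by the choice of genes. Their day 0 and day 4 libraries did not overlap, so leaving out a library could not reverse the direction. Under median ratio rescaling 8 lost the call, under no minimum 5, under no intensity trend 5, and under the replicate block none. Depth could not be used to judge low values, since TPM do not keep it.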
